A study of Glycine max with 6 samples.

Results

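Broad binding regions of the soybean protein GLYMA.04G093300 are described here, that is, stretches of at least 1500 bp in which all 4 immunoprecipitated libraries of the study held a peak. They were chosen by merging peak intervals of the 4 lists that shared 1 base or more and keeping merged regions with a peak in every list and an end minus start of 1500 bp or more. Of 64222 merged regions, 15473 held a peak in all 4 libraries, and 458 of these met the length rule. The other 15015 shared regions are called shorter regions. Embryos of the cultivar Williams 82 were dissected at early maturation from seeds of 6 to 7 mm and fixed with formaldehyde. Antibodies to separate peptides of the protein, called Ab1 and Ab2, were each used on 2 biological replicates, which gave 4 libraries, and 2 input libraries of total chromatin carried no antibody. All groups are of the same cultivar, tissue and stage, and no knockout or control immunoprecipitate was analysed here, so binding and unspecific precipitation cannot be told apart. The values below come from the peak lists of the 4 antibody libraries; input libraries entered only as far as the authors' peak caller used them, which the labels do not state.

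In chromatin immunoprecipitation and sequencing (ChIP-seq), DNA fragments that come down with a protein are sequenced, and places where fragments pile up above the background are called as peaks. A peak has an interval, the stretch above the caller's threshold, and a summit, the base at which its signal is highest. A regulatory protein can contact several separate sites in a promoter or enhancer, and sites closer to each other than the length of the sonicated fragments, here 100 to 500 bp, run together into a longer interval. Early maturation is the phase in which a legume embryo turns from forming its organs to storing protein and oil. The deposited lists give 1 summit for each interval, so a long interval with several maxima shows only its highest. No source used here names the genome build of the coordinates. Peaks on chromosome 4 lie beyond the last gene of the gene table at hand, and whether its assembly is that of the peaks is not known, so no gene names and no sequences are attached to the regions.

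The lists held 59261 and 44181 peaks for Ab1 replicates 1 and 2, and 28010 and 21291 for Ab2 replicates 1 and 2. The depth in reads is unknown. The median number of fragments at the strongest summit of a broad region, recovered from the deposited fold and p, was 56 and 59 for the Ab1 replicates and 28 and 24 for the Ab2 replicates. In shorter regions it was 44, 48, 22 and 20 in the same order. The recovered background at these summits was nearly the same in both classes, with medians of 4.79 against 4.58 fragments in Ab1 replicate 1 and 2.59 against 2.69 in Ab2 replicate 2. A background of at least 10 times the library median, which 272 peaks of the 4 lists had, was found at 0 of the 3229 peaks in broad regions, so that a share of up to 0.0929% remains possible, from 3 counts over all of them. The peaks in shorter regions likewise held 0 with such a background in every library, so its absence does not set broad regions apart.

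The broad regions had a median length of 1711 bp (quartiles 1588 and 1914) and reached 3986 bp. Most were under 2000 bp: 91 were at least 2000 bp long, 24 at least 2500 bp and 4 at least 3000 bp. They made up 2.96% of the shared regions and covered 0.833 Mb, or 7.81% of the shared bases. The regions nearest the bound on the inside were 1502 bp on chromosome 8, 1503 bp on chromosome 3 and 1503 bp on chromosome 13, with a mean fold enrichment of 5.42, 6.28 and 10.4 with Ab1 and of 5.53, 6.05 and 7.77 with Ab2. Those nearest on the outside were 1499 bp on chromosome 8, 1499 bp on chromosome 16 and 1498 bp on chromosome 4, at 12.3, 6.59 and 10.2 with Ab1 and 9.79, 4.36 and 7.33 with Ab2. Fold enrichment is the authors' ratio of signal at the summit to local background, and a region's value is that of its strongest peak. The values on both sides of the bound overlapped. Length, number of peaks and fold all come from the lists that the rule used, so differences between broad and shorter regions are given as a description, with no test.

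The length of a broad region came mostly from the Ab1 intervals. In Ab1 replicate 1, 332 of the 458 regions (72.5%) held a single interval of 1500 bp or more, and in Ab1 replicate 2 it was 111 (24.2%). In Ab2 replicates 1 and 2 only 4 and 1 regions held such an interval. Median interval lengths inside broad regions were 1539, 735, 368 and 289 bp for Ab1 replicates 1 and 2 and Ab2 replicates 1 and 2. Intervals of 500 bp or less, the upper end of the fragment sizes given for sonication, were 10.1% and 34.4% of the Ab1 peaks and 67.2% and 78.2% of the Ab2 peaks in broad regions. The intervals of Ab1 replicate 1 covered a median of 98.3% of a region and those of Ab2 replicate 2 a median of 40.7%. Ab1 replicate 1 set both ends of 215 regions (46.9%, against 46.7% of shorter regions) and Ab1 replicate 2 both ends of 37, whereas the Ab2 libraries together did so for 1 region, by replicate 1. An interval of 1500 bp or more was present in some library in 357 regions (77.9%, 95% Wilson interval 73.9 to 81.5), and in the others the length arose from shorter intervals of different libraries chained together.

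The number of broad regions rested on 1 library. Without Ab1 replicate 1 the same rule on the other 3 lists gave 136 regions, each inside a broad region, so that 29.7% of the broad regions still held one. Leaving out Ab1 replicate 2 gave 357 regions, which also all lay inside broad regions. Without Ab2 replicate 1 or replicate 2 the counts were 451 and 467. List length and the number of fragments at summits differed between the antibodies together with interval length. With lists of equal length the rule gave 402 regions. The part of depth was not tested.

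Within the same stretches of DNA, both Ab2 libraries listed more separate peaks than both Ab1 libraries. A broad region held on average 1.25 peaks in Ab1 replicate 1 and 1.75 in Ab1 replicate 2, a mean of 1.5 ± 0.357 (SD, n = 2). It held 2.06 and 1.99 in Ab2 replicates 1 and 2, a mean of 2.02 ± 0.0463 (SD, n = 2). The geometric mean of the Ab1 libraries was 0.731 times that of the Ab2 libraries. This is a description with no test, since the length rule mostly took regions with a long Ab1 replicate 1 interval, which leaves room for few peaks in that list. The spread between the Ab1 replicates was large beside this difference. In shorter regions the means were 1.02, 1.07, 1.09 and 1.08 in the same order, with a ratio of geometric means of 0.961.

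Several peaks, meaning 2 or more, stood in 109 broad regions (23.8%, 95% Wilson interval 20.1 to 27.9) of Ab1 replicate 1 and in 266 (58.1%, 53.5 to 62.5) of Ab1 replicate 2. For Ab2 they stood in 347 (75.8%, 71.6 to 79.5) and 320 (69.9%, 65.5 to 73.9). In shorter regions the shares lay between 1.78% and 8.78%. The most peaks that a library listed in a broad region was 5, reached by Ab2 replicate 1 and Ab2 replicate 2 in different regions. All 4 libraries had several peaks in 45 broad regions (9.83%, 7.42 to 12.9) and in 10 shorter ones, and all 4 had a single peak in 23 broad regions (5.02%) and in 12416 shorter ones (82.7%). With 1 library left out and the rule applied to the other 3, the share with several peaks in all of them was 4.41% without Ab1 replicate 1 and 2.80% without Ab1 replicate 2. Wilson intervals here cover counting error only, since all regions come from the same 4 libraries. Per kb of region the broad ones held fewer peaks than the shorter ones. This largely follows from the rule, since every shared region, however short, holds at least 1 peak per library. The values were 0.687 against 1.55 in Ab1 replicate 1 and 0.964 against 1.64 in Ab1 replicate 2. They were 1.13 against 1.67 in Ab2 replicate 1 and 1.09 against 1.65 in Ab2 replicate 2.

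**Figure D1:**
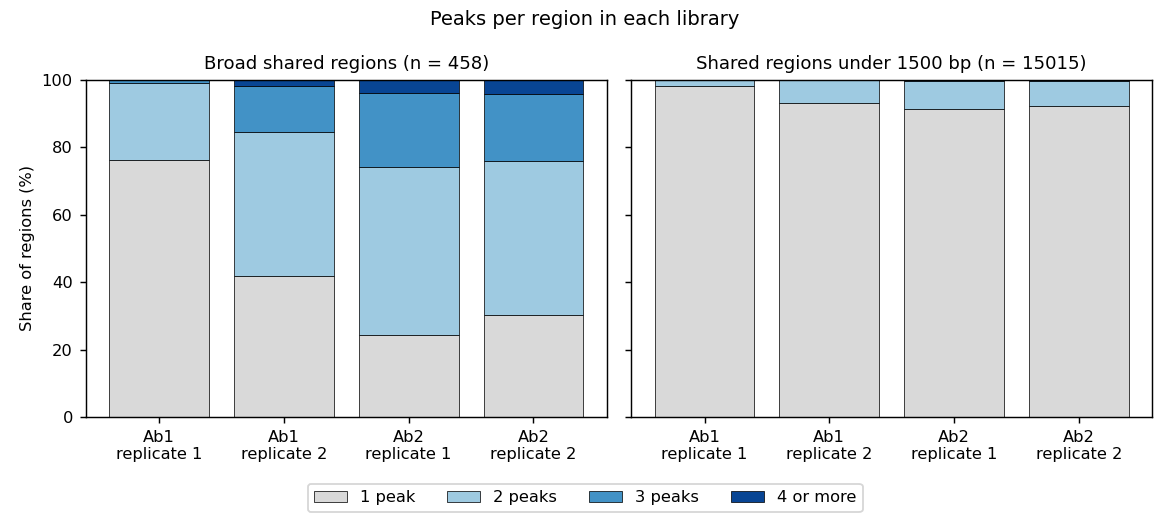
Share of regions (%) with 1, 2, 3 or 4 and more peaks in each library, for broad and for shorter shared regions. In broad regions the share with 1 peak is largest in Ab1 replicate 1 (349 of 458 regions) and smallest in Ab2 replicate 1 (111 of 458), and in shorter regions 1 peak is the rule in every library.

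The counts of the antibodies did not overlap in 118 broad regions (25.8%) where both Ab2 libraries had more peaks than both Ab1 libraries, against 2.58% of all shared regions. The opposite order was seen in 7 broad regions (1.53%), against 0.317% of all shared regions. In 201 broad regions (43.9%), 1 interval of Ab1 replicate 1 faced several peaks in both Ab2 libraries, against 3.02% of shorter regions. In 95 (20.7%) this held for both Ab1 libraries, against 1.85% of shorter ones. The length rule mostly took regions with a long Ab1 replicate 1 interval, which leaves room for few peaks in that list. Counted by intervals, the 332 Ab1 replicate 1 intervals of 1500 bp or more held a mean of 2.08 summits of Ab2 replicate 1 and 1.98 of Ab2 replicate 2. Of these, 256 (77.1%) held 2 or more summits of Ab2 replicate 1, and 233 (70.2%) held 2 or more of Ab2 replicate 2. None was without an Ab2 summit in either list, which the rule nearly fixes, since every region holds a peak of each list.

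Neighbouring summits of a library within a broad region were mostly well apart. The median distance to the next summit was 956 bp (quartiles 725 and 1247) in Ab1 replicate 1 and 750 bp (572 and 1031) in Ab1 replicate 2. It was 668 bp (482 and 859) in Ab2 replicate 1 and 626 bp (440 and 884) in Ab2 replicate 2. These distances numbered 114, 345, 484 and 454 in the same order. The mean of the 4 library medians was 750 bp, and the Ab1 medians lay above both Ab2 medians. Each interval gives 1 summit and the Ab1 intervals were longer, so this order is no separate result. From the first to the last summit, regions with several peaks spanned medians of 937 to 1044 bp. In shorter regions with several peaks the medians had the same order, at distances that their length bounds. They were 521 and 510 bp in Ab1 replicates 1 and 2 and 447 and 408 bp in Ab2 replicates 1 and 2.

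**Figure D2:**
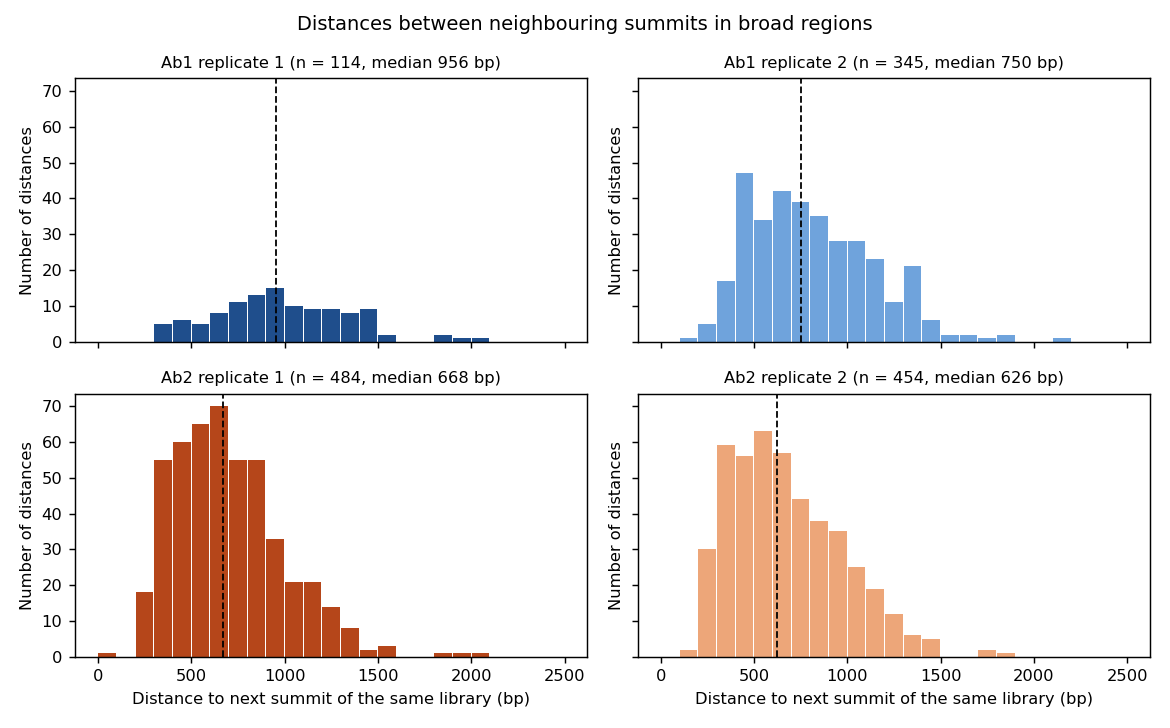
Number of distances (y axis) by distance in bp to the next summit of the same library (x axis, steps of 100 bp) in broad regions, 1 panel for each library, with the median as a dashed line. The Ab2 libraries hold the most distances, 484 and 454, with medians of 668 and 626 bp, and Ab1 replicate 1 the fewest, 114, with a median of 956 bp.

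To see whether the libraries placed their summits alike, summits of all libraries in a region were chained into 1 position when at most 150 bp apart. The 458 broad regions held 1403 positions, or 3.06 per region, against 1.27 in shorter regions. Of these positions, 345 (24.6%) held a summit of all 4 libraries, 239 (17.0%) of 3, 304 (21.7%) of 2 and 515 (36.7%) of 1. In shorter regions 70.7% of positions were found in all 4 libraries. A position found in all 4 had a median of 71 bp between its outermost summits in both classes. The widest reached 313 bp in broad and 444 bp in shorter regions.

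Most broad regions therefore had 1 place on which all libraries put a summit, and further places seen as summits in some. A single position common to all libraries was present in 311 broad regions (67.9%, 63.5 to 72.0), 2 were present in 17 (3.71%, 2.33 to 5.86), and 130 (28.4%, 24.4 to 32.7) had none. Of the 45 broad regions with several peaks in every library, 17 (37.8%, 25.1 to 52.4) had 2 common positions, against 3 of 10 such shorter regions (30.0%, 10.8 to 60.3). Without Ab1 replicate 1 or Ab1 replicate 2, the share of broad regions with several common positions was 2.21% or 1.68%. Asking for less gave larger shares. Several positions with a summit of at least 2 libraries were present in 340 broad regions (74.2%, 70.0 to 78.0). Several with a summit of both Ab2 libraries were present in 196 (42.8%), and several with a summit of both Ab1 libraries in 40 (8.73%). The shares of shorter regions were 9.24%, 2.60% and 0.400% in the same order.

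A missing summit seldom meant a missing interval where both Ab2 libraries had a summit. Of the 657 positions with a summit of both Ab2 libraries, 654 (99.5%) lay inside intervals of all 4 libraries. Ab1 replicate 1 had no summit at 263 of them, and 262 of these lay inside one of its intervals. For Ab1 replicate 2 it was 189 of 192. These counts were largely fixed in advance. Ab2 intervals hold such positions by definition, and the Ab1 intervals covered medians of 98.3% and 83.0% of a region in replicates 1 and 2. Positions with the summit of 1 library alone were inside intervals of all libraries in 28.2% of cases. Counting intervals in place of summits, 292 broad regions (63.8%, 59.3 to 68.0) had several positions covered in all 4 libraries.

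Where a pair of libraries both resolved several peaks, most regions held at least 2 summits that matched one to one within 150 bp. The Ab2 replicates both had several peaks in 265 broad regions, and 185 of them (69.8%, 64.0 to 75.0) held 2 or more matched summits, with a median offset of 39 bp. For the Ab1 replicates this was 39 of 72 (54.2%, 42.7 to 65.2). Between antibodies it ranged from 50.6% of 81 regions, for the libraries of replicate 1, to 66.2% of 207 regions, for Ab1 replicate 2 and Ab2 replicate 1. The Wilson intervals of these shares overlapped for all pairs except the replicate 1 libraries against the Ab2 replicates. A complete match, with every summit of both libraries paired, was less frequent, at 21.3% to 34.6% of regions. In shorter regions with several peaks in both libraries of a pair, complete matches made up 60.0% to 73.0%.

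The order of matched summits by fold differed between libraries in part of the regions. Of the 185 broad regions in which the Ab2 replicates shared 2 or more summits, 124 (67.0%, 60.0 to 73.4) had the stronger of the leading pair on the same side in both. It was 32 of 39 (82.1%, 67.3 to 91.0) for the Ab1 replicates and 69.3% to 82.0% between Ab1 replicate 2 and the Ab2 libraries. The second peak of a region was weaker than the first to a different degree in each library. Its median ratio to the strongest was 0.593 in Ab1 replicate 1, 0.691 in Ab1 replicate 2, 0.746 in Ab2 replicate 1 and 0.751 in Ab2 replicate 2. It reached at least 0.8 in 25 of 109 regions (22.9%) of Ab1 replicate 1 and 91 of 266 (34.2%) of Ab1 replicate 2, and in 142 of 347 (40.9%) and 133 of 320 (41.6%) of Ab2 replicates 1 and 2, a minority in every library. The same medians in shorter regions were 0.611, 0.682, 0.754 and 0.775.

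The strongest summit of all 4 libraries fell in 1 position in 226 broad regions (49.3%, 44.8 to 53.9). It did so in 12993 shorter regions (86.5%, 86.0 to 87.1), which held fewer positions to differ in, 1.27 against 3.06 per region. Without chaining, the strongest summits of all 4 libraries lay within 100 bp in 163 broad regions (35.6%, 31.3 to 40.1) and in 62.2% of shorter ones. In 177 broad regions the strongest summits lay in 2 positions, in 50 in 3 and in 5 in 4 different positions. The Ab1 replicates had the strongest summit in the same position in 335 regions (73.1%) and the Ab2 replicates in 299 (65.3%). Between antibodies the shares were 65.3% to 70.3%, in the same range as within an antibody. In 19 regions the Ab1 libraries shared one place and the Ab2 libraries another. The same number, 19, was split by replicate number, and 12 were split crosswise. Regions with the strongest summit alike had higher median folds than the 232 others, at 10.4 against 8.50 in Ab1 replicate 1, 8.21 against 6.69 in Ab1 replicate 2, 8.30 against 6.69 in Ab2 replicate 1 and 7.36 against 6.40 in Ab2 replicate 2.

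When Ab1 gave a single summit and Ab2 several, the Ab1 summit mostly stood at the strongest Ab2 summit. For Ab1 replicate 1 against Ab2 replicate 1 this was so in 163 of 266 regions (61.3%). In 69 regions (25.9%) the Ab1 summit stood at a weaker Ab2 summit, and in 34 (12.8%) it was more than 150 bp from any. The other 3 combinations of an Ab1 with an Ab2 library gave 59.8% to 62.0% at the strongest. In these, 12.9% to 21.9% of the Ab1 summits stood at no Ab2 summit.

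Among the 10 longest broad regions, 2766 to 3986 bp, 3 had 2 positions common to all libraries, 4 had 1 and 3 had none. The longest, on chromosome 11 from 3239410 to 3243395, consisted in Ab1 replicate 1 of an interval of 3147 bp with its summit 1739 bp from the region start and a second of 639 bp with its summit at 3758 bp. Ab1 replicate 2 split the same stretch into 4 intervals with summits at 910, 1282, 1792 and 2700 bp. The Ab2 replicates had 4 summits each, at 953, 1643, 2292 and 3718 bp and at 785, 1830, 2360 and 3781 bp. The last of these lay within 100 bp of the second summit of Ab1 replicate 1, and no Ab1 replicate 2 summit was there, although its last interval reached the region end. Its strongest peak had a fold of 9.86 and 8.04 with Ab1 and 7.32 and 7.14 with Ab2.

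The region on chromosome 5 from 37790595 to 37793934 was split differently by the antibodies. Both Ab1 libraries gave 1 interval, of 3340 and 3120 bp, and the Ab2 libraries gave 3 and 5 peaks. The Ab1 summits lay 2633 and 632 bp from the region start, toward opposite ends, and no position was common to all 4 libraries. The region on chromosome 13 from 24596765 to 24600102 had 1 interval in Ab1 replicate 1 and 3 or 4 peaks in the other libraries. All 4 libraries placed a summit between 290 and 349 bp from its start, with folds of 10.8, 9.33, 7.58 and 7.60, and the other 3 also placed one between 2664 and 2767 bp.

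The region on chromosome 10 from 47809098 to 47812122, 3025 bp long, was both among the longest and among the strongest. All 4 libraries put their strongest summit within 22 bp of each other, 1485, 1507, 1503 and 1487 bp from the region start, with folds of 18.6, 16.0, 14.1 and 17.4. A weaker peak at 375 to 585 bp was also common to all, at 9.37, 7.32, 7.33 and 6.17. A further one near 2636 bp was listed in 3 libraries, at 8.20, 12.1 and 8.24, and fell inside the long second interval of Ab1 replicate 1. The groups of summits were thus placed and ordered alike in every library that resolved them, except that in Ab1 replicate 1 the last 2 were one interval.

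**Figure D3:**
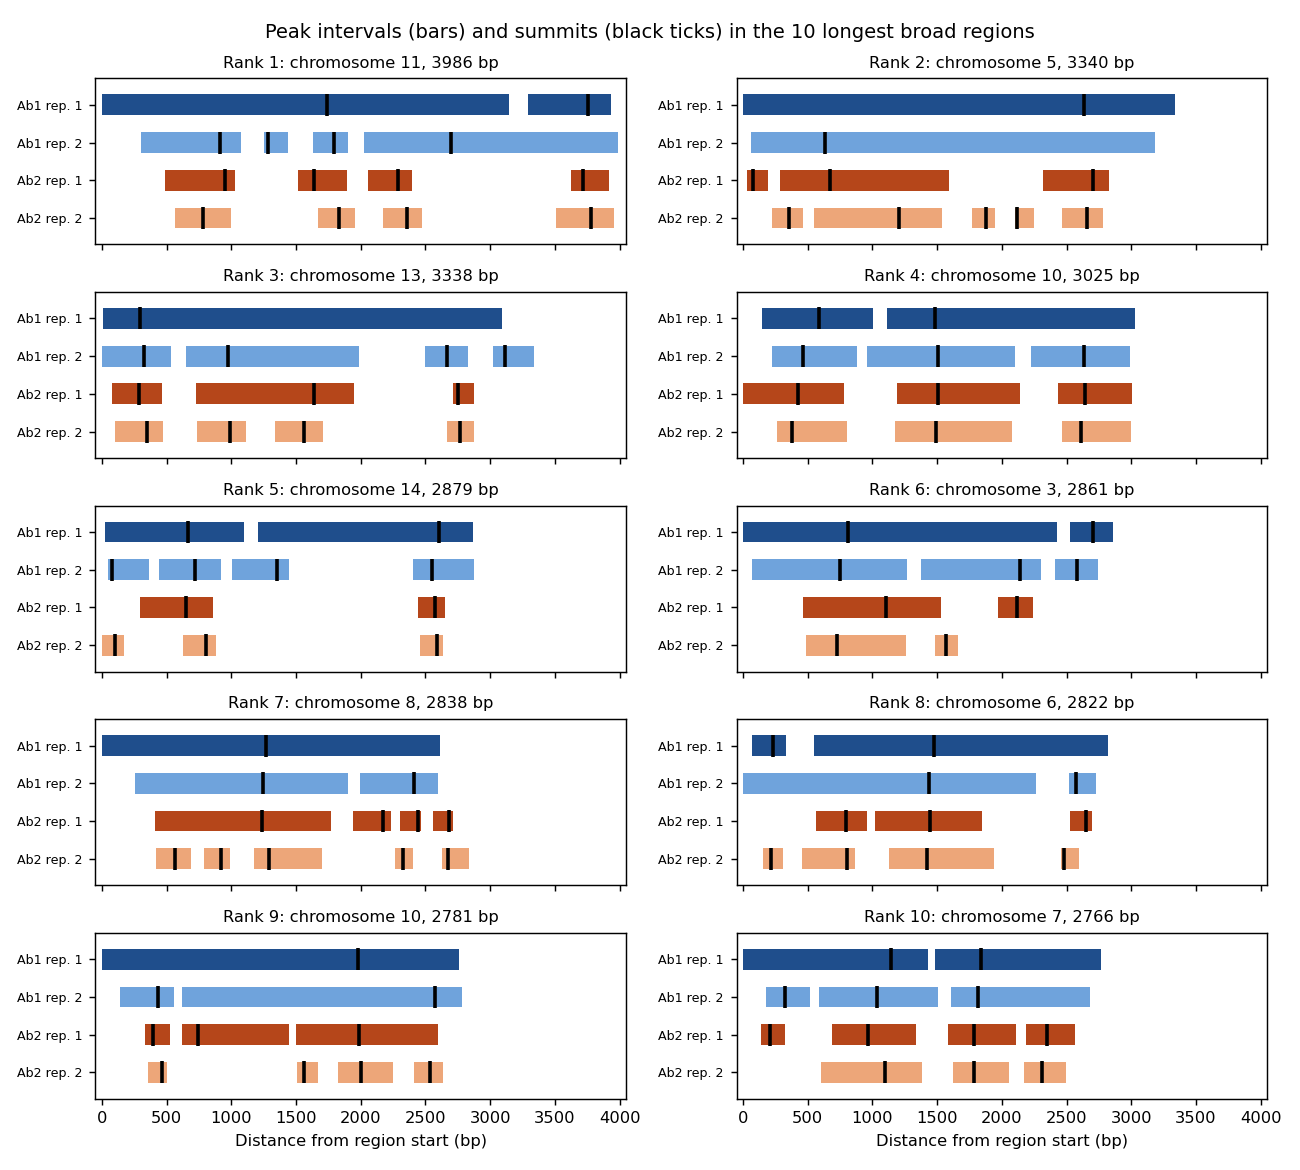
Peak intervals (bars) and summits (black ticks) of the 4 libraries in the 10 longest broad regions, with distance from the region start in bp on the x axis and 1 row for each library. Ab1 replicate 1 covers each region with 1 or 2 intervals, while the Ab2 libraries list 2 to 5 shorter ones within the same stretch.

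The 17 regions with 2 common positions allowed the layout to be compared in every library. The positions were 740 to 1889 bp apart, with a median of 1.25 kb. In 8 of the 17 the same position was the stronger in all 4 libraries, in 7 in 3 libraries and in 2 the libraries were split evenly. On chromosome 16 from 32513754 to 32515952 the second position was the stronger throughout, with folds of 22.1, 11.2, 16.2 and 11.1 against 12.2, 6.73, 8.32 and 6.81 at the first, in the order Ab1 replicates 1 and 2 and Ab2 replicates 1 and 2. On chromosome 8 from 42802074 to 42804793 it was the first position, with 13.8, 11.3, 11.5 and 11.3 against 8.76, 6.27, 5.81 and 5.35. On chromosome 15 from 8467822 to 8470584 the first position had 10.5, 13.0, 11.2 and 8.68 and the second, 1367 bp away, 8.78, 8.13, 5.81 and 7.39. The region on chromosome 14 from 1379899 to 1382777 went the other way in 1 library: its first position was stronger at 5.67, 5.62 and 5.19 against 4.49, 4.91 and 4.29, but weaker in Ab2 replicate 2, at 5.24 against 5.40. On chromosome 7 from 43656222 to 43658987 the second position was the stronger of both in every library, at 12.1, 10.7, 8.16 and 10.3 against 10.8, 7.82, 6.89 and 7.34. The example on chromosome 16 was chosen after its values were seen.

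A long single peak in every library was rare. The 23 broad regions with 1 peak in each library had a median length of 1691 bp, and in 19 of them (82.6%) the strongest, here the only, summits lay in 1 position. The strongest broad region by mean rank was one of these, on chromosome 8 from 3852375 to 3854145. Its intervals were 1771 and 1565 bp long with Ab1 and 1188 and 1115 bp with Ab2, its folds were 19.5, 17.2, 18.2 and 17.1, and its summits spanned 234 bp. One region, on chromosome 12 from 9187553 to 9189836, held an interval of 1500 bp or more in all 4 libraries. These were 2284 and 1861 bp long with Ab1 and 1805 and 1826 bp with Ab2, and the folds were 13.6, 12.2, 13.6 and 12.5. This region was chosen after its values were seen.

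The other strongest broad regions combined a common leading summit with weaker peaks beside it in some libraries. On chromosome 11 from 5173440 to 5175802 the Ab1 libraries gave 1 interval each, of 2325 and 2311 bp, and the Ab2 libraries 3 peaks each. The folds were 20.8, 17.9, 17.6 and 14.4, and the strongest summits lay within 82 bp. On chromosome 2 from 6676900 to 6678859 the folds were 18.7, 14.4, 16.4 and 16.6, with 1 interval in each Ab1 library and 3 and 2 peaks with Ab2. On chromosome 7 from 43825788 to 43827626 they were 18.4, 15.2, 13.9 and 15.8. In all 5 of the strongest broad regions, that on chromosome 10 included, the strongest summits of all libraries fell in 1 position.

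Broad regions were on the whole stronger than shorter ones in each library. Their median fold was 9.26 against 7.58 in Ab1 replicate 1, 7.34 against 5.94 in Ab1 replicate 2, 7.28 against 5.88 in Ab2 replicate 1 and 6.83 against 5.47 in Ab2 replicate 2. The ratio was 1.24 ± 0.0109 (SD, n = 4 libraries). The libraries come from 2 biological replicates and share the same regions, so this SD is no spread over independent replicates. With 1 library left out and the regions chosen anew, the ratio was 1.26 to 1.40. The distributions overlapped widely, since the lower quartile of broad regions, 7.56 in Ab1 replicate 1, lay close to the median of shorter ones. The highest folds of all were in shorter regions, at 27.4, 22.2, 22.7 and 23.3, whereas broad regions reached 22.1, 17.9, 18.2 and 17.4. A region's value is the maximum over its peaks, and broad regions have more peaks to take it from.

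The median fold was higher in each longer class of shared regions, on both sides of the bound. In Ab1 replicate 1 the median was 6.83 in regions under 500 bp, 7.84 from 500 to 999 bp, 8.71 from 1000 to 1499 bp, 9.14 from 1500 to 1999 bp and 10.0 from 2000 bp up. In Ab2 replicate 2 it was 5.22, 5.59, 5.99, 6.78 and 7.36. The share with the strongest summit alike ran the other way, at 99.1%, 84.4%, 60.7%, 49.9% and 47.3%. Summit positions per region rose from 1.01 to 3.82 over these classes, so the shortest regions left the strongest summits little room to differ. By mean rank of fold over the 4 libraries, 121 broad regions (26.4%, 22.6 to 30.6) were in the top 10% of shared regions, and they made up 7.82% of it. At the other end, 29 broad regions (6.33%) lay below the median of shared regions in all 4 libraries.

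**Figure D4:**
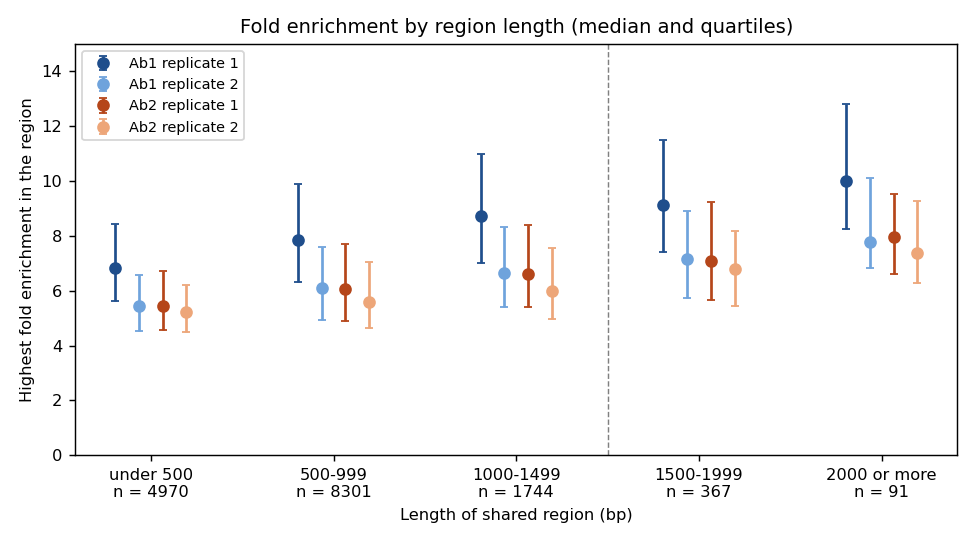
Highest fold enrichment in a shared region (y axis, the authors' ratio of signal to background) by region length in bp (x axis), as the median with quartile bars for each library; the dashed line marks the 1500 bp bound. The medians go up across the 5 length classes in all 4 libraries, from 6.83 to 10.0 in Ab1 replicate 1, and the quartile bars of neighbouring classes overlap.

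The ranks of fold did not set the antibodies apart more often in broad regions than in all shared regions. Ranks were taken within each library over the shared regions. Both Ab1 libraries ranked 65 broad regions (14.2%) above both Ab2 libraries, against 14.1% of all shared regions, and both Ab2 libraries ranked 67 (14.6%) above both Ab1 libraries, against 14.9% of all.

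Broad regions lay along the chromosomes much as the shorter ones did. Of the 457 on the 20 chromosomes, 333 (72.9%, 68.6 to 76.7) were in the outermost 20% at either end, against 70.4% (69.7 to 71.2) of shorter regions. The outermost 10% at either end held 41.1% and 41.5%. The interior was sparse for both, and the seventh of 10 equal parts held 6 broad regions (1.31%, 0.603 to 2.83) against 3.09% (2.82 to 3.38) of shorter ones. The last peak in any of the lists stood for the end of a chromosome. The other broad region was on scaffold_21.

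**Figure D5:**
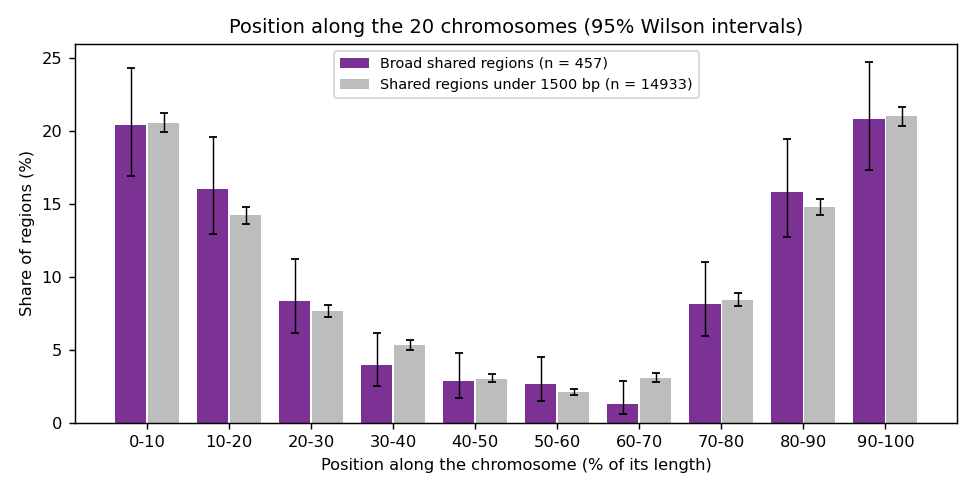
Share of broad and of shorter shared regions (%) in 10 equal parts of the chromosome length, over the 20 chromosomes, with 95% Wilson intervals as error bars. Both classes are highest in the first and last parts, at 20.4% and 20.8% for broad regions, and the intervals of both classes overlap in all 10 parts.

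The most broad regions, 43 or 0.900 per Mb, lay on chromosome 8. Next came chromosome 13 with 31, chromosomes 3 and 7 with 30 each and chromosome 17 with 29. Chromosome 16 held the fewest, 13. As a share of a chromosome's shared regions, broad regions ranged from 1.86% (1.11 to 3.10) on chromosome 5 to 4.45% (3.14 to 6.28) on chromosome 3. Chromosome 8 had 4.36% (3.25 to 5.82) and chromosome 7 had 4.05%. Chromosome 13, the one with the most shared regions, had 2.67%, and chromosome 14 had 3.48%. Neighbours in this order had overlapping intervals.

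Broad regions often had another shared region close by. The gap from the region edge to the next shared region had a median of 3.60 kb, against 7.28 kb for shorter regions. It was at most 2000 bp for 177 broad regions (38.6%, 34.3 to 43.2) and for 26.5% (25.8 to 27.2) of shorter ones, and at most 1000 bp for 120 (26.2%, 22.4 to 30.4) and 16.9%. The strongest broad region, on chromosome 8, was 54 bp from the next shared region. Broad regions fell into 285 of the 1-Mb bins that hold shared regions, 863 in all, with 1 in 169 bins and 3 or more in 39. The highest number in a bin was 6, on chromosome 7 from 3 to 4 Mb among 48 shared regions and on chromosome 17 from 11 to 12 Mb among 46.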

How the data were processed

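The submitters' processing notes name Bowtie 0.12.7 and MACS2, the latter without a version, and each library had a peak list of its own. The authors deposited for every peak the fold enrichment at its summit (a ratio), a −log10 p-value and a −log10 q-value, and no q exceeded 0.01. The integer score that the authors deposited entered no result. Groups and replicate numbers come from the sample titles. An unexplained tag, "cat", stands in the peak names of Ab1 replicate 2.

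Intervals were merged, summits chained and shares computed with Python 3.11.15, numpy 2.4.6, pandas 2.3.3 and SciPy 1.17.1, and figures drawn with matplotlib 3.10.9. Fragments and background at a summit were solved from fold and p as MACS2 defines them, and came out whole within 0.01 for 100% of peaks in each library, for Ab1 replicate 2 after dividing by a scale of 0.881. The steps were tested on simulated data. The members and the measures were chosen with earlier results of these data known. Regions were named by a rule: the 10 longest, the 5 strongest by mean rank of fold, the 5 longest of the 17 that tie at 2 common positions, and the 3 on each side of the length bound. Regions on chromosomes 12, 16 and 17 were named besides, after their values were seen. The exact permutation test planned for peaks per region is not reported, because the length rule uses the same intervals. The replicate numbers pair the libraries, since the design text gives each biological replicate both antibodies. The differences between replicates in rank of fold correlated at r = 0.355 between antibodies over the shared regions, which are not independent. 

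The settings varied were the q threshold (−log10 q of 5 or more), the overlap (50 bp or more), the length bound (1.25 kb and 2000 bp), lists of equal length, removal of high-background peaks, chaining within 100 and 250 bp, an outer part of 10%, the replicate block and each library left out.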

Additional observations from a re-analysis of the deposited data

How the results depend on the processing

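Of 86 alternatives, 59 kept a result, 27 moved it and 0 reversed it. Only the Ab1 to Ab2 peak ratio and the fold ratio could be called reversed, by crossing 1. The peak ratio counted as kept whenever it did not cross 1, and the number of regions when within a fixed factor. Shares counted as kept inside the reported Wilson interval, and distance and fold ratio inside 1 SD over libraries. The tally is thus no measure of stability. Removing high-background peaks changed nothing, as none lay in these regions, and says nothing about stability. Length bounds of 1.25 kb and 2000 bp gave 995 and 91 regions by construction. With them, the share with several peaks in every library went from 9.83% to 5.03% and 26.4%, that with several common positions from 3.71% to 1.81% and 9.89%, and the fold ratio from 1.24 to 1.20 and 1.33. The share with several peaks was 7.37% at the stricter q, 4.48% with lists of equal length and 5.99% with 50 bp overlap, where several common positions made up 1.84%. The fold ratio was 1.18 at the stricter q and 1.17 with equal lists. Chaining within 100 bp gave 43.9% with the strongest summit alike, and an outer part of 10% held 41.1% by construction. With 1 library left out there were 136 to 467 regions, a peak ratio of Ab1 to Ab2 of 0.512 to 0.743, 2.80% to 12.4% with several peaks, 1.68% to 4.93% with several common positions, 51.0% to 57.6% with the strongest summit alike, 716 to 792 bp between summits, a fold ratio of 1.26 to 1.40 and 70.6% to 73.3% in outer parts. The lowest count was without Ab1 replicate 1, and several peaks fell to 4.41% without it and 2.80% without Ab1 replicate 2. Pairing the libraries by number, as a replicate block, left the peak ratio at 0.731; no test is read from it. The cause of the other changes was not tested. The strongest Ab2 summits held medians of only 24 to 28 fragments, and the part of depth was not tested.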

Other observations

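Summit positions of broad regions were not spread evenly over the combinations of libraries. Besides the 345 positions common to all, the most frequent combinations of several libraries were both Ab2 libraries alone with 143 positions (10.2%) and Ab1 replicate 2 with both Ab2 libraries with 120 (8.55%). Both Ab1 libraries without Ab2 accounted for 21 (1.50%). Positions of 1 library numbered 50 for Ab1 replicate 1, 144 for Ab1 replicate 2, 158 for Ab2 replicate 1 and 163 for Ab2 replicate 2. Those of Ab2 replicate 2 alone lay inside intervals of all libraries in 54.6% of cases, and those of Ab1 replicate 2 alone in 8.33%.

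The strongest summit was off centre more often in broad than in shorter regions. It lay in the central 50% of the length in 57.4% to 59.6% of broad regions, by library, and in 86.1% to 90.1% of shorter ones. Shorter regions held 1.27 summit positions each against 3.06, and 82.7% had a single peak in every library. Their strongest summit thus had less room to lie off centre.

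On chromosome 17 from 11461631 to 11464078, intervals of 2414, 2313 and 2137 bp were listed in 3 libraries, while the longest of Ab2 replicate 2 was 777 bp. This region was chosen after its values were seen.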
